A study of Mus musculus with 24 samples.

Results

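Microglia, the resident macrophages of the brain, hold their identity through a set of transcription factors, and 9 of these genes are described here: Spi1, Irf8 and Runx1, which act in the myeloid lineage, and Sall1, Mef2a, Mef2c, Maf, Klf2 and Bhlhe41, which shape the mature cell. The genes were taken as a list of names, 9 of the 35519 genes for which transcripts could be summed, and all 9 passed the filter on low counts with 9803 genes in all. RNA was sequenced from 24 libraries of 1000 microglia each, sorted from whole brains of C57BL/6 mice as Ly6C-negative, CD11b-positive, Fcrls-positive cells, in a comparison of a microglial state (phagocytosis or control), of genotype (NL4-/-, a knockout of neuroligin-4, an adhesion protein of synapses, or WT) and of sex. Phagocytosis libraries numbered 4 each from female NL4-/-, female WT, male NL4-/- and male WT mice, and control libraries numbered 2 each from the same 4 kinds of mice; the series' design text speaks of 5 per phagocytosis group, of which 4 are analysed here. What was taken up, where uptake took place and how old the animals were is not stated in the labels; the knocked-out gene is not analysed here. The series calls the libraries biological replicates without tying them to animals. P-values therefore weigh a difference against the spread between these libraries within groups, and the libraries may not be separate animals.

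PU.1, the protein of Spi1, is an ETS-domain factor without which macrophages and microglia do not form, and it binds enhancers of the lineage together with partners such as IRF8 and RUNX1. SALL1 is a zinc-finger repressor that, among mouse macrophages, marks microglia, and its loss in mice moves microglia toward an inflammatory profile. MEF2A and MEF2C are MADS-box factors whose motif is frequent in enhancers of microglia, MAF is a large basic leucine zipper factor that restrains the division of macrophages, KLF2 is a Krüppel-like factor tied to quiescence in several blood and vessel cells, and BHLHE41 is a helix-loop-helix repressor that binds E-boxes.

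Of the 9 genes, 7 had promoter windows in the RefSeq table for GRCm38.p6, 13 windows in all, each reaching from 250 bases before a transcript's start to 50 bases after it. The 4 windows below belong to the 4 genes that were called lower in phagocytosis libraries in the comparison of states given further on. Where a gene had several, the window of its most upstream start is shown, and letters in capitals are matches to motifs of the members' own protein families.
Mef2a, chr7:67372809-67373108, minus strand: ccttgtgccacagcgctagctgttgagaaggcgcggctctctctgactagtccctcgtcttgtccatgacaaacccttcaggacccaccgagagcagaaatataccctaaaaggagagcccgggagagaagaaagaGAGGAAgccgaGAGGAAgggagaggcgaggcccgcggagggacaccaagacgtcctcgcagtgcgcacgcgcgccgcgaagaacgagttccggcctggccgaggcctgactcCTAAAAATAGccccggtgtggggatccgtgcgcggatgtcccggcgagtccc
Mef2c, chr13:83503784-83504083, plus strand: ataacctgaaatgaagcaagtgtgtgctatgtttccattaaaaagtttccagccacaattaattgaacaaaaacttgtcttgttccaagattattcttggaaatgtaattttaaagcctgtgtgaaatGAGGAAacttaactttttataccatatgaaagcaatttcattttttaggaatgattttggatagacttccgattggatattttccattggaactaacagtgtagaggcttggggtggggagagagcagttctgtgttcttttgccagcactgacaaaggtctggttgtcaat
Sall1, chr8:89044113-89044412, minus strand: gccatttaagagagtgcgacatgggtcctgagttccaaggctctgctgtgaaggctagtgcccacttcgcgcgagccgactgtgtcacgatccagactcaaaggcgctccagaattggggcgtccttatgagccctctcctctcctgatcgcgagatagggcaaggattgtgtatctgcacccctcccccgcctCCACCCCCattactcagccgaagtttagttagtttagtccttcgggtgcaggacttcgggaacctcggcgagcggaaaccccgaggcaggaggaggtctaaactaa
Bhlhe41, chr6:145865371-145865670, minus strand: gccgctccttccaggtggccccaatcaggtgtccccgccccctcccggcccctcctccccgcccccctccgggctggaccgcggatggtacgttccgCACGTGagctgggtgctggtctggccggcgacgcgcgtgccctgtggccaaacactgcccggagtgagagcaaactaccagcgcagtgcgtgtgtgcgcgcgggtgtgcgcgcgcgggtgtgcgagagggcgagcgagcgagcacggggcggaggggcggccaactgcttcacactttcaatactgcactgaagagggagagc
The motifs were searched on both strands as GAGGAA for PU.1, TGTGGT for RUNX, GGGNGTGG for KLF and CACGTG for BHLHE40/41, and as the consensus elements of MEF2, IRF and MAF proteins, and no matches overlapped. The Mef2a window held the PU.1 letters 114 and 103 bases before the start and the MEF2 letters 2 bases before it. The Mef2c window held the PU.1 letters 122 bases before the start, the Sall1 window held the KLF letters on the opposite strand 56 bases before it, and the Bhlhe41 window held CACGTG 153 bases before it. Of the windows of these genes not shown, 1 of Sall1 held the KLF letters and 1 of Mef2c the PU.1 letters. The remaining window of Sall1 and that of Mef2c held no match. Members outside these 4 genes also held matches. The Klf2 window held the MEF2 letters, 1 Runx1 window held the RUNX letters and CACGTG, and 1 Runx1 window held the PU.1 letters. The Irf8 windows held no match. Among all 32851 promoter windows of the table, 28.3% held the PU.1 letters, 3.69% the MEF2 letters, 3.44% the IRF letters, 16.8% the RUNX letters, 0.387% the MAF letters, 17.6% the KLF letters and 7.15% CACGTG. A match of letters is a description of the window and says nothing about binding.

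In depth, the libraries held 421107 to 1013797 expected reads, and Smart-Seq2, the full-length method used, carries neither molecular identifiers nor strand. The transcripts of 8 of the 9 genes had at least 15 reads in every library, with 233 to 575 for Irf8 and 15 to 60 for Maf, while Klf2 had 0 to 16. Defining genes of microglia were high throughout: Tmem119 averaged 3132 CPM in phagocytosis libraries and 4326 CPM in control libraries, and Cx3cr1 averaged 6047 CPM in phagocytosis libraries and 7355 CPM in control libraries. These CPM are scaled to the library total, and the CPM of the members below are in addition TMM-normalised. Transcripts of the major satellite repeat took 1.52 to 16.3% of the reads of phagocytosis libraries and 4.06 to 23.2% of those of control libraries, and 3 controls were over 20%: male NL4-/- control 1, female NL4-/- control 1 and male WT control 2.

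Phagocytosis libraries were set against control libraries by averaging the state effect over the 4 kinds of mice, which asks what differed between the states whatever the sex and genotype. Mef2a, Mef2c, Sall1 and Bhlhe41 fell in the phagocytosis state, to between 0.632 and 0.757 of their control level, and Spi1 rose 1.67-fold. Irf8, Maf, Runx1 and Klf2 did not pass the test. Thus 5 of the 9 members were called by edgeR's quasi-likelihood test at an adjusted p under 0.05, against 13.6% of all 9803 genes; 4 of 9 were called lower, against 5.18% of all genes, and 1 of 9 higher, against 8.41%. The members' median log2 fold change was -0.40, and that of all genes tested was -0.01. For 0 of the 9 genes were the states free of overlap, which held for 0.0714% of all genes downward and 0.796% upward. In bulk libraries of sorted cells, fewer cells of a type and less RNA per cell cannot be told apart.

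**Figure D1:**
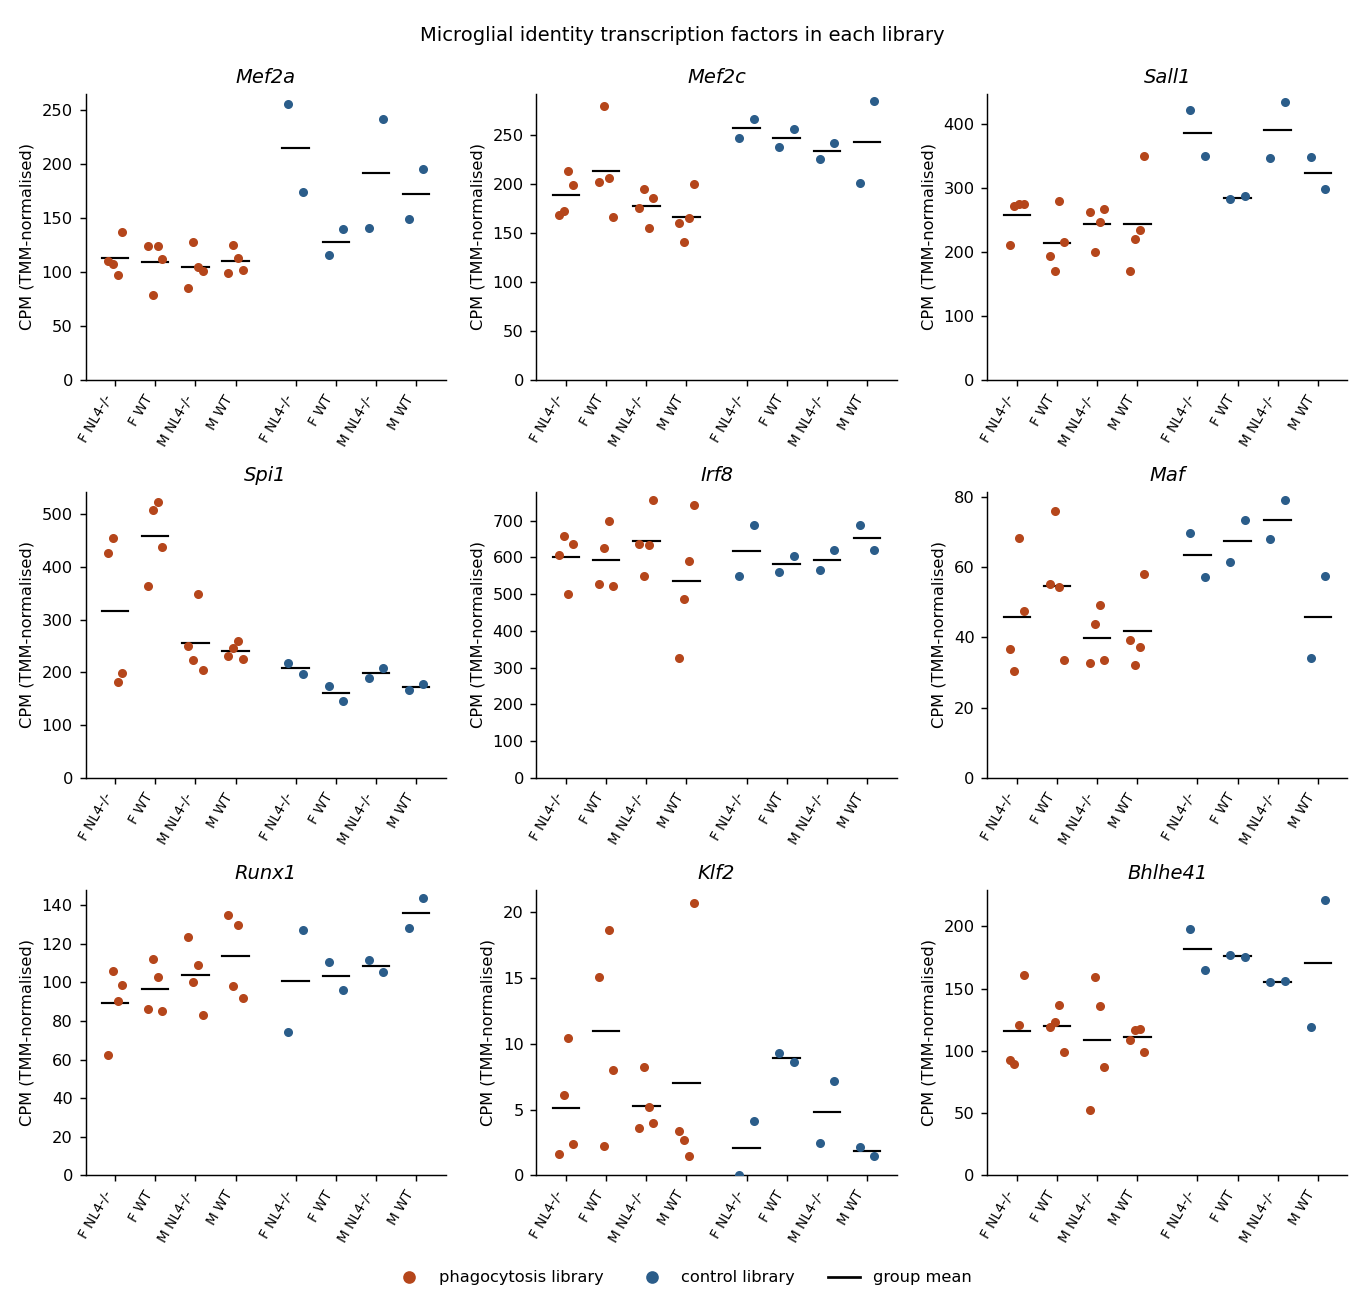
TMM-normalised CPM of each of the 9 genes (y axis, linear from 0) in each of the 24 libraries, grouped on the x axis by sex (F, M) and genotype, with phagocytosis libraries left and control libraries right; horizontal lines are group means. For Sall1, 15 of 16 phagocytosis libraries lie below the lowest control library, and for Spi1 13 of 16 lie above the highest, while Irf8 and Runx1 overlap widely.

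Among the lineage factors, Spi1 was the gene that rose. The 4 female WT phagocytosis libraries had 363, 508, 523 and 438 CPM of Spi1, and the 2 female WT control libraries had 174 and 146 CPM. The 4 female NL4-/- phagocytosis libraries had 427, 456, 182 and 199 CPM, against 218 and 197 CPM in the female NL4-/- controls. In males the NL4-/- phagocytosis libraries had 250, 223, 348 and 204 CPM and the NL4-/- controls 189 and 209 CPM, and the WT phagocytosis libraries had 232, 246, 259 and 225 CPM and the WT controls 167 and 177 CPM. The highest values were thus those of female WT phagocytosis libraries and of 2 of the 4 female NL4-/- ones, whose other 2 libraries lay within the range of the controls. Over all groups Spi1 averaged 318 ± 118 CPM (SD, n = 16) in phagocytosis libraries and 185 ± 23.4 CPM (SD, n = 8) in controls, a log2 fold change of 0.74 ± 0.148 (SE; edgeR, adjusted p = 0.00117).

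Most Spi1 reads were assigned to its long transcript. Spi1 lies on chromosome 2 (GRCm38, chr2:91082390-91115756, plus strand), and the files hold 4 of its transcripts. The transcript of 2034 bases had 120, 202 and 501 CPM (lowest, median and highest) in phagocytosis libraries, against 85.7, 128 and 176 CPM in control libraries, a ratio of means of 2.03. The coding transcript of 402 bases averaged 28.1 ± 14.5 CPM in phagocytosis libraries (SD, n = 16) and 27.7 ± 8.12 CPM in control libraries (SD, n = 8), a ratio of 1.02. The coding transcript of 544 bases averaged 24.4 ± 14.1 CPM in phagocytosis and 17.8 ± 9.66 CPM in control libraries, a ratio of 1.37, and the non-coding one of 613 bases held 2.25% of Spi1 reads in phagocytosis and 6.2% in control libraries. No transcript was tested on its own. When counts were instead rebuilt from the authors' TPM and effective lengths, which allows for the average transcript length in each library, the log2 fold change of Spi1 was 0.26 and it was no longer called (edgeR, adjusted p = 0.291). The rise is therefore stated for reads per gene, and the split of reads between transcripts is the authors' estimate.

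**Figure D2:**
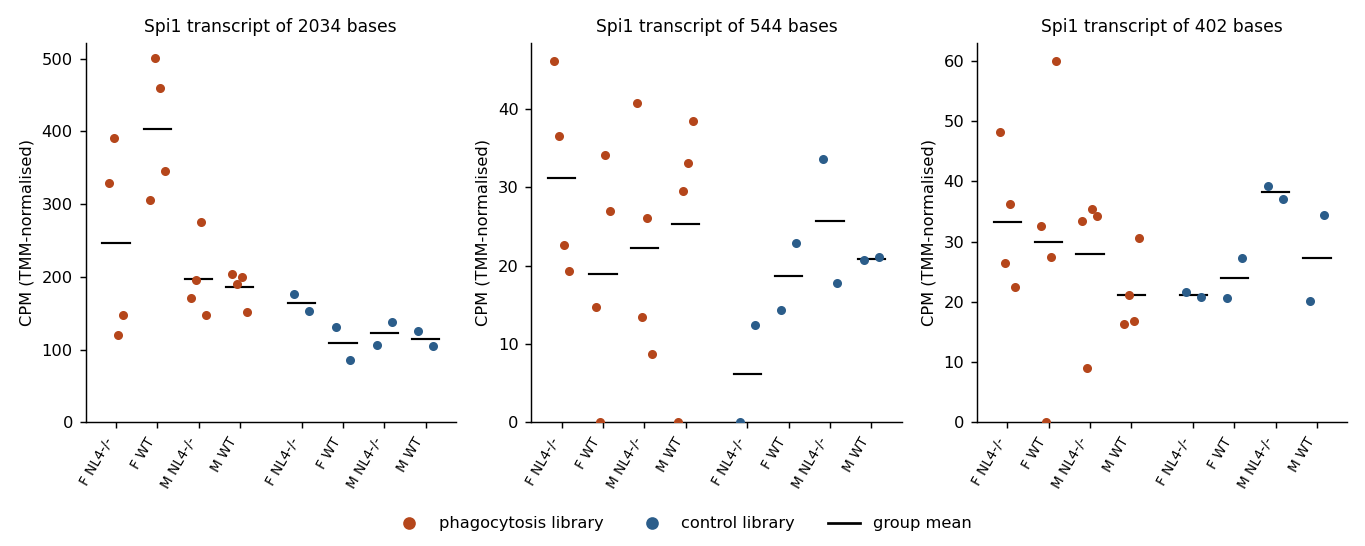
TMM-normalised CPM (y axis, linear from 0, own scale in each panel) of the 3 coding Spi1 transcripts in each library, grouped by sex and genotype on the x axis, phagocytosis left and control right; lines are group means. The transcript of 2034 bases averages 258 CPM in phagocytosis and 128 CPM in control libraries, the 544-base transcript 24.4 and 17.8 CPM, and the 402-base transcript 28.1 and 27.7 CPM.

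Irf8 (chr8:120736358-120756694, plus strand), the gene of a partner of PU.1, stayed at one of the highest levels of the 9 genes in both states. It had 325, 616 and 757 CPM (lowest, median and highest) in phagocytosis libraries, against 548, 612 and 688 CPM in control libraries. The lowest value, in male WT phagocytosis 1, and the highest, in male NL4-/- phagocytosis 4, lay to either side of the whole control range. Its log2 fold change was -0.05, with a 95% interval of -0.28 to 0.18 (edgeR, adjusted p = 0.853). Runx1 (chr16:92601466-92826149, minus strand), a factor of early blood formation, had 62.4, 99.2 and 135 CPM in phagocytosis libraries, against 74.2, 111 and 144 CPM in controls, and did not pass either (log2 fold change -0.16 ± 0.13, edgeR, adjusted p = 0.456).

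Sall1, the microglia-marking repressor, had 170, 241 and 350 CPM (lowest, median and highest) in phagocytosis libraries, against 282, 347 and 434 CPM in control libraries. All but 1 of the 16 phagocytosis libraries lay below the lowest control, and the exception was male WT phagocytosis 4. The means were 240 ± 47.3 CPM (SD, n = 16) and 346 ± 57.8 CPM (SD, n = 8), a log2 fold change of -0.52 ± 0.117 (SE; edgeR, adjusted p = 0.0035). Within each of the 4 phagocytosis groups, the libraries numbered 1 and 2 averaged lower than those numbered 3 and 4, with a difference of log2(CPM + 1) between -0.56 and -0.16. With only the phagocytosis libraries numbered 3 and 4, the log2 fold change was -0.35 and Sall1 did not pass (edgeR, adjusted p = 0.0563). Sall1 has 1 transcript in the files (chr8:89027235-89044162, minus strand), so its count does not depend on a division between transcripts.

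Both MEF2 members fell. Mef2a (chr7:67231163-67372858, minus strand) had 78.3, 109 and 138 CPM (lowest, median and highest) in phagocytosis libraries, against 116, 162 and 256 CPM in control libraries. The controls varied more than the phagocytosis libraries: they averaged 177 ± 50.7 CPM (SD, n = 8), and the phagocytosis libraries 109 ± 15.9 CPM (SD, n = 16). The log2 fold change was -0.66 ± 0.122 (SE; edgeR, adjusted p = 0.0005), and 11 of 16 phagocytosis libraries lay below the lowest control. Mef2c (chr13:83504034-83667080, plus strand) had 141, 181 and 280 CPM in phagocytosis libraries, against 201, 245 and 285 CPM in control libraries. It averaged 187 ± 32.3 CPM (SD, n = 16) in phagocytosis and 245 ± 25.5 CPM (SD, n = 8) in control libraries, a log2 fold change of -0.40 ± 0.106 (SE; edgeR, adjusted p = 0.011). This call was lost without male WT control 2 (log2 fold change -0.31, adjusted p = 0.0871) and without male NL4-/- control 2 (-0.35, adjusted p = 0.0596). It was also lost without the 3 satellite-rich controls (-0.35, adjusted p = 0.154) and with counts rebuilt from TPM and effective lengths (-0.45, adjusted p = 0.104).

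Part of the Mef2a reads came from transcripts that retain an intron and do not code for the full protein. These transcripts held 35.9 ± 7.76% of the Mef2a reads in phagocytosis libraries (SD, n = 16) and 43.6 ± 8.25% in control libraries (SD, n = 8), with ranges of 20.9 to 51.6% and 36.1 to 58.0%. The retained-intron transcript of 4445 bases averaged 21.8 ± 10.8 CPM in phagocytosis and 50.5 ± 23.6 CPM in control libraries. With reads of protein-coding transcripts alone, the log2 fold change of Mef2a was -0.55 (edgeR, adjusted p = 0.0114). For Mef2c, whose reads are divided among 31 transcripts, the most read transcript, of 3498 bases, averaged 63.0 ± 40.8 CPM in phagocytosis and 93.7 ± 42.5 CPM in control libraries, a spread too wide for statements on single transcripts.

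Bhlhe41 (chr6:145858243-145865558, minus strand) had 52.5, 117 and 161 CPM (lowest, median and highest) in phagocytosis libraries, against 120, 170 and 221 CPM in control libraries. The lowest and the highest control value were those of male WT controls 1 and 2, and the other 6 controls lay between 155 and 198 CPM. The means were 114 ± 27.6 CPM (SD, n = 16) and 171 ± 30.3 CPM (SD, n = 8), a log2 fold change of -0.58 ± 0.149 (SE; edgeR, adjusted p = 0.00877). Without male WT control 2 it was -0.43 and not called (edgeR, adjusted p = 0.0883), and without the 3 satellite-rich controls -0.41 and not called (adjusted p = 0.238). Its exons share 1280 bases with a gene annotated on the opposite strand, Gm43909, which is not among the transcripts quantified, and reads of the 2 strands cannot be told apart. Mef2a shares 302 exonic bases with Lysmd4 on the opposite strand, which averaged 10.4 CPM in phagocytosis and 9.0 CPM in control libraries. Maf shares 440 exonic bases with Gm15655 and Runx1 shares 106 with Gm26626. Both of these genes lie on the opposite strand and are not among the transcripts quantified.

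Maf (chr8:115682942-115707794, minus strand) and Klf2 (chr8:72319033-72321656, plus strand) did not pass. Maf had 30.5, 41.6 and 76.1 CPM (lowest, median and highest) in phagocytosis libraries, against 34.2, 64.8 and 79.1 CPM in control libraries. Its log2 fold change was -0.44 ± 0.169 (edgeR, adjusted p = 0.0801), and it passed in 4 of 34 alternative fits. The lowest Maf control value was that of male WT control 1, and the highest phagocytosis value that of female WT phagocytosis 2. Klf2 was near the floor of these libraries, with 1.49, 4.57 and 20.6 CPM in phagocytosis libraries and 0, 3.26 and 9.29 CPM in control libraries, and its 95% interval of the log2 fold change, -0.32 to 2.03, leaves the sign unresolved (edgeR, adjusted p = 0.355).

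**Figure D3:**
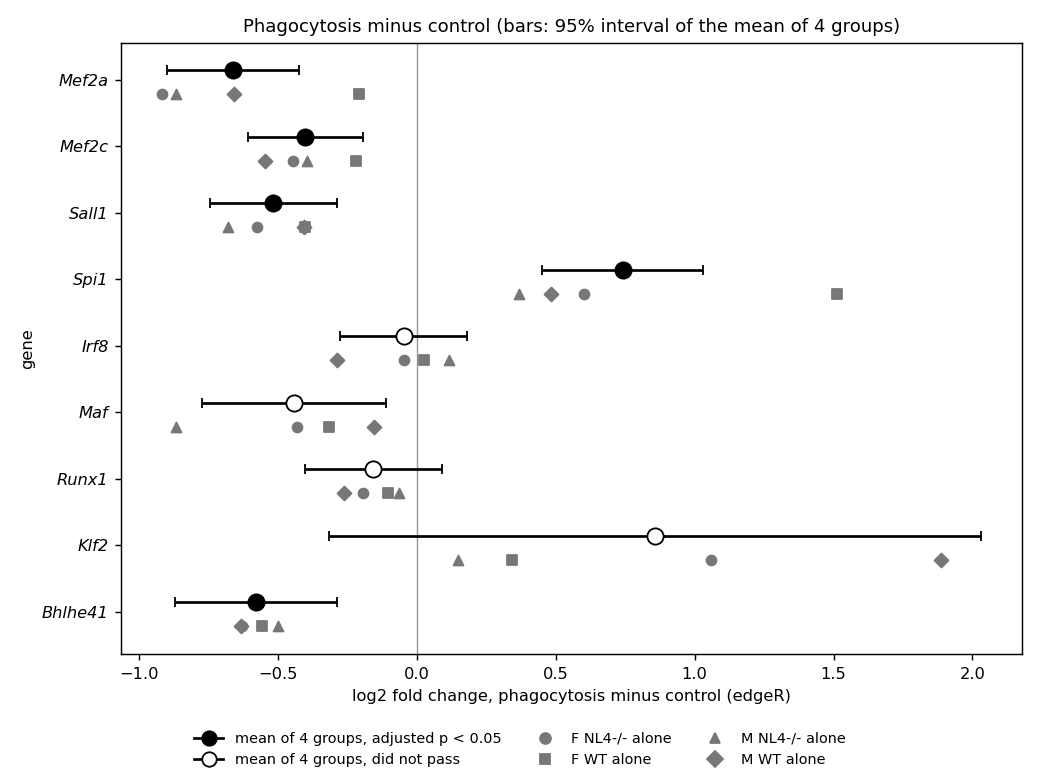
Log2 fold change of each gene, phagocytosis minus control (x axis), averaged over the 4 kinds of mice (large circles with 95% intervals, filled where edgeR's adjusted p was under 0.05) and in each group alone (small grey symbols). The 4 symbols of Mef2a, Mef2c, Sall1 and Bhlhe41 lie left of 0 and those of Spi1 right of 0, with 1.51 in female WT and 0.37 in male NL4-/- mice as their extremes.

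Compared per kilobase of effective length, so that genes can be set side by side, the order of the levels was nearly the same in both states. In phagocytosis libraries it was Spi1 (318 ± 93.1 CPM per kilobase, SD, n = 16), Irf8 (268 ± 62.8), Mef2c (122 ± 46.0), Mef2a (52.4 ± 7.37), Sall1 (46.8 ± 10.2), Runx1 (43.9 ± 8.94), Bhlhe41 (31.4 ± 7.06), Maf (17.0 ± 5.25) and Klf2 (5.64 ± 4.80). In control libraries Irf8 came first (255 ± 42.5, SD, n = 8) and Spi1 next (242 ± 37.5), followed by the other 7 in the same order, from 155 ± 37.2 for Mef2c to 3.55 ± 2.87 for Klf2. Spi1 and Irf8 differed by less than their SD in either state, as did Mef2a and Sall1, and in phagocytosis libraries so did Sall1 and Runx1. In control libraries Runx1 (43.1 ± 8.64) and Bhlhe41 (41.6 ± 3.74) were also within their SD of each other.

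Within single sex and genotype groups, where 4 phagocytosis libraries stand against 2 controls, 1 member passed in 1 group. Spi1 rose in female WT mice by 1.51 ± 0.302 on the log2 scale (edgeR, adjusted p = 0.00891), where 0.581% of all genes were called. The call was lost when either female WT control was left out. In the other groups its log2 fold change was 0.48 in male WT mice, 0.37 in male NL4-/- mice and 0.60 in female NL4-/- mice, and 0 of the 9 members passed there, against 0.326%, 0.602% and 0.459% of all genes. The difference of the state effect between sexes, male minus female, was -0.63 ± 0.289 for Spi1 and did not pass (edgeR, unadjusted p = 0.0373, adjusted p = 1), so the female WT call does not show a difference between groups.

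The 4 genes that fell in the mean of the groups had negative log2 fold changes in each group. Mef2a was at -0.92 in female NL4-/- mice, -0.87 in male NL4-/- mice, -0.66 in male WT mice and -0.21 in female WT mice. Its smallest change was in female WT mice, whose 2 control libraries, at 116 and 140 CPM, were the lowest controls of all and overlapped the phagocytosis libraries of that group. For Mef2a, Mef2c, Sall1 and Bhlhe41 all 4 phagocytosis libraries of female NL4-/- mice lay below both controls, as 11.3% of all genes did in that group. The same held for Mef2a, Mef2c, Sall1 and Maf in male NL4-/- mice (11.5% of all genes), for Mef2a, Mef2c and Bhlhe41 in male WT mice (8.2%) and for Sall1 and Bhlhe41 in female WT mice (12.6%).

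NL4-/- libraries were set against WT libraries, in both states together, in each state, and in each sex and state. None of the 9 members passed in any of these 7 comparisons by edgeR or DESeq2, where edgeR called 0% of the 9803 genes in each and DESeq2 called 0 to 9 genes. At an unadjusted p under 0.05 edgeR gave Sall1 in the overall comparison, where 438 of all genes were under it, Mef2a among controls (331 genes) and among female controls (210 genes), and Spi1 among female phagocytosis libraries (510 genes). In the other 3 comparisons no member was under it. Sall1 averaged 297 ± 75.5 CPM in NL4-/- and 254 ± 62.6 CPM in WT libraries (SD, n = 12 each), a log2 fold change of 0.24 ± 0.119 that did not pass (edgeR, adjusted p = 1). Among controls Mef2a averaged 203 ± 54.9 CPM in NL4-/- and 150 ± 33.1 CPM in WT libraries (SD, n = 4 each), also not passing (0.44 ± 0.201, edgeR, adjusted p = 1).

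Averaged over the sexes, the genotype effect on Spi1 was positive in controls and negative in phagocytosis libraries, and passed in neither. In phagocytosis libraries the log2 fold change was -0.22, with a 95% interval of -0.54 to 0.10. The difference of the genotype effect between the states, -0.51 ± 0.289, did not pass (edgeR, unadjusted p = 0.0863). In the controls its 4 NL4-/- libraries, at 189 to 218 CPM, all lay above the 4 WT libraries, at 146 to 177 CPM, as 1.56% of all genes did. The log2 fold change in the controls was 0.29 ± 0.239 (edgeR, adjusted p = 1). In male phagocytosis libraries it was positive, 0.10 ± 0.232, NL4-/- minus WT, and did not pass. In female phagocytosis libraries Spi1 had a log2 fold change of -0.54 ± 0.229, NL4-/- minus WT (edgeR, adjusted p = 0.942), and the libraries overlapped. With only the phagocytosis libraries numbered 3 and 4, those of the 2 low NL4-/- libraries, Spi1 was called lower in this comparison. For the other members in phagocytosis libraries of both sexes, the 95% intervals of the log2 fold change, NL4-/- minus WT, were -0.30 to 0.27 for Mef2a, -0.28 to 0.20 for Mef2c, -0.14 to 0.40 for Sall1, -0.12 to 0.41 for Irf8, -0.40 to 0.17 for Runx1 and -0.37 to 0.32 for Bhlhe41. Maf (-0.52 to 0.25) and Klf2 (-1.89 to 0.39) were measured less closely.

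Male libraries were set against female ones, and 0 of the 9 members passed, against 0.0612% of all genes by edgeR; 0 were under an unadjusted p of 0.05, and 0 passed by DESeq2. The lowest unadjusted p values were those of Spi1 and Runx1. Spi1 averaged 227 ± 47.8 CPM in male and 319 ± 146 CPM in female libraries (SD, n = 12 each; log2 fold change -0.29 ± 0.145, edgeR, adjusted p = 1), and Runx1 113 ± 18.8 CPM in male and 95.8 ± 17.6 CPM in female libraries (0.24 ± 0.126, edgeR, adjusted p = 1). Neither the interaction of genotype with state nor that of genotype with sex in phagocytosis libraries called a member or any of the 9803 genes in edgeR, and DESeq2 called 1 and 2 genes, 0 of them members.

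Other transcription factors related to the 9 were taken as 9 lists of families and further macrophage factors, 99 genes in all. Of these, 74 were tested in the state comparison, and 6 rose and 10 fell, with a median log2 fold change of -0.12, where 8.41% of all genes rose and 5.18% fell, so the count upward is near that of genes at large. Mef2d, the remaining tested MEF2 gene, averaged 63.3 ± 14 CPM in phagocytosis and 62.9 ± 13 CPM in control libraries (SD, n = 16 and 8; log2 fold change 0.01, edgeR, adjusted p = 0.978). Sall3, a zinc-finger relative of Sall1, fell by 0.46 on the log2 scale (edgeR, adjusted p = 0.0139), and Sall2 did not pass (-0.31, adjusted p = 0.579).

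In the PU.1-related ETS list 1 of 10 tested genes rose and none fell, where 8.41% of all genes rose and 5.18% fell. The gene that rose was Ets2, an ETS factor downstream of growth factor signals. It had 51.6 ± 17.3 CPM in phagocytosis and 33.2 ± 9.89 CPM in control libraries (log2 fold change 0.62 ± 0.210, edgeR, adjusted p = 0.0467), a call lost in 19 of 34 alternatives. Etv5 (-0.48), Elf2 (-0.36) and Fli1 (-0.32) did not pass. Of 6 tested IRF genes, 1 rose: Irf7, which amplifies interferon responses, had 32.5 to 594 CPM in phagocytosis libraries and 7.19 to 55.5 CPM in control libraries (log2 fold change 3.23 ± 0.596, edgeR, adjusted p = 0.00188). Irf9 (0.22), Irf5 (-0.14) and Irf1 (-0.12) did not pass.

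The KLF list moved in both directions: Klf12 (-0.69 ± 0.139, edgeR, adjusted p = 0.00126) and Klf3 (-0.50 ± 0.113, adjusted p = 0.00335), both transcriptional repressors, fell, and Klf6 rose (0.38 ± 0.115, adjusted p = 0.0238). Klf12 was not called when only protein-coding transcripts were summed (-0.46, adjusted p = 0.485). The call of Klf6 was lost in 8 of 34 alternatives and that of Klf3 in 2. Of the 7 tested genes of the MAF, BACH and NFE2 list none passed, with Nfe2l1 at 0.41, Bach2 at -0.43, Bach1 at -0.36 and Mafk at -0.17. In the list of Bhlhe40 and the MiT/TFE factors, which drive lysosomal genes, 0 of 4 passed: Tfe3 (-0.28), Mitf (-0.15), Tfeb (-0.09) and Bhlhe40, the nearest relative of Bhlhe41, which had only 6.48 ± 7.28 CPM in phagocytosis and 3.84 ± 3.56 CPM in control libraries. Cbfa2t3, the tested gene of the RUNX list, did not pass (-0.42, edgeR, adjusted p = 0.551).

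Among 35 tested further macrophage factors, 3 rose and 7 fell, against 8.41% and 5.18% of all genes. The count upward is near that of genes at large. Id2, an inhibitor of helix-loop-helix factors, had 104 to 281 CPM in phagocytosis libraries and 31.4 to 117 CPM in control libraries (log2 fold change 1.64 ± 0.170, edgeR, adjusted p = 9.51e-08). Cebpb, a factor of inflammatory macrophages, was low in both states, at 18.2 ± 12.3 CPM in phagocytosis and 3.05 ± 2.35 CPM in control libraries (2.66 ± 0.611, adjusted p = 0.0033). Smad3, which carries TGF-beta signals, fell (-0.54 ± 0.140, adjusted p = 0.00951), as did Lyl1, a blood-lineage helix-loop-helix factor (-0.70 ± 0.190, adjusted p = 0.0155). Of 38 tested homeostatic surface and secreted genes, 13 fell and 1 rose, against 5.18% and 8.41% of all genes, with a median of -0.48; those with the smallest adjusted p were Tgfbr1 (-0.77), Lair1 (-0.49), Rnase4 (-0.72) and Crybb1 (-0.63). These lists, like the members, were drawn up with results of these libraries known, so their direction is no independent evidence.

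**Figure D4:**
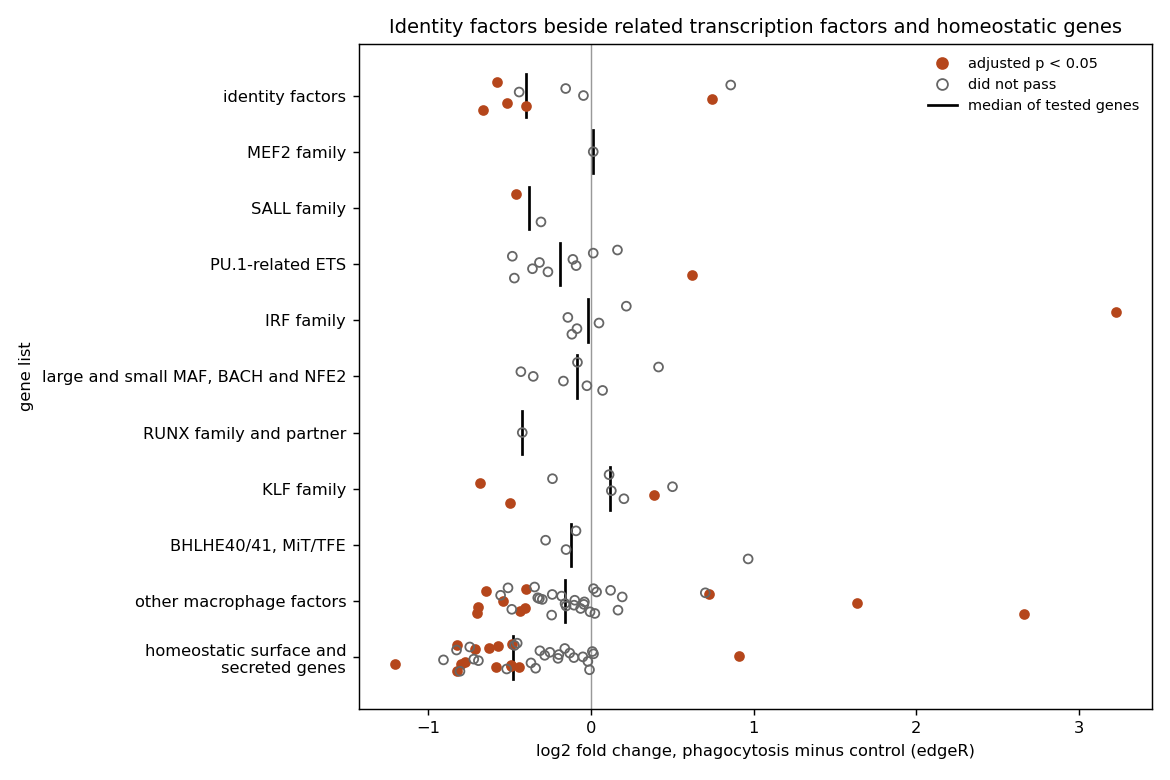
Log2 fold change, phagocytosis minus control (x axis), of each tested gene in the 9 identity factors, the 9 lists of related factors and the homeostatic genes (rows); filled points passed edgeR's test at an adjusted p under 0.05, and vertical lines are list medians. The median is -0.40 for the identity factors, -0.12 over all related factors and -0.48 for the homeostatic genes, and Irf7 lies farthest right at 3.23.

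For each of the 5 members that passed, the genes most like it across the 24 libraries were those with the smallest root mean square difference of centred log2(CPM + 1), among 6698 genes with a mean of at least 20 CPM. They were Rab3gap1 for Mef2a (0.24, against a median of 0.58 over all these genes), Srgap2 for Mef2c (0.20 against 0.49), Tanc2 for Sall1 (0.18 against 0.54), Lamp1 for Spi1 (0.25 against 0.68) and Qk for Bhlhe41 (0.24 against 0.60). The next for Spi1 were C1qc and Zbtb7a, and for Sall1 Akna and Abl1. A gene that did not vary at all would have scored 0.41 for Mef2a, 0.28 for Mef2c, 0.36 for Sall1, 0.54 for Spi1 and 0.44 for Bhlhe41. Srgap2 was thus only somewhat closer to Mef2c than a flat gene would be. Relations among the 9 members themselves did not pass. With group means removed in the 16 phagocytosis libraries, 0 of 36 pairs passed a permutation test with Benjamini-Hochberg adjustment, and 21 pairs had a positive Pearson r. The highest was that of Mef2c and Maf, with r of 0.764 (permutation p = 0.00542, adjusted p = 0.195), Spearman's rho of 0.712 (permutation p = 0.0102, adjusted p = 0.367) and r of 0.634 without the 2 libraries farthest from the median.

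Markers of microglia and of other cell types were summed in each library. The 9 microglial markers, Sall1 and the sort gene Fcrls among them, summed to 13762, 20549 and 34453 CPM of the library total (lowest, median and highest) in phagocytosis libraries, against 25620, 32762 and 36320 CPM in control libraries, and 0 of 9 were higher in phagocytosis libraries. The 14 markers of border-associated macrophages summed to 1420, 1715 and 2451 CPM, against 864, 1021 and 1731 CPM in control libraries, and all 14 were higher in phagocytosis libraries. Most of that sum was Stab1, at 1461 CPM in phagocytosis and 993 CPM in control libraries, while Mrc1 was at 9.49 and 3.39 CPM and Lyve1 at 4.71 and 0.25 CPM. The 12 monocyte markers summed to 42.9, 106 and 374 CPM, against 24.7, 48.5 and 127 CPM, and all 12 were higher in phagocytosis libraries. The 11 neuronal markers summed to 12.6, 39.2 and 108 CPM in phagocytosis libraries, against 5.59, 9.09 and 13.3 CPM in control libraries, with 9 of 11 higher in phagocytosis libraries; Uchl1 alone held 32.3 CPM of this in phagocytosis and 2.01 CPM in control libraries. The 10 oligodendrocyte markers summed to 168, 207 and 370 CPM in phagocytosis libraries, against 121, 147 and 183 CPM in control libraries. Of these, 7 of 10 were higher in phagocytosis libraries, and Mog, Cldn11, Mal, Olig1 and Olig2 had 3 reads or fewer over all 24 libraries together. The 8 endothelial markers ranged over 17.6 to 68.2 CPM in phagocytosis and 18.4 to 35.1 CPM in control libraries. Here 3 of 8 were higher in phagocytosis libraries, and Cldn5, Tek and Ly6c1 had 3 reads or fewer over all 24 libraries together. The sums of the remaining lists had medians close to each other in the 2 states and overlapping ranges. The astrocyte sum joined markers that moved in opposite directions. Slc1a3, its largest part, averaged 60.7 CPM in phagocytosis and 89.2 CPM in control libraries, while the other 7 markers were higher in phagocytosis libraries. Of these 7, Gfap averaged 14.03 CPM in phagocytosis and 1.72 CPM in control libraries, and Aldoc 12.04 and 2.37 CPM. Astrocyte markers (7 of 8 higher in phagocytosis libraries) lay at 72.8 to 139 CPM in phagocytosis and 57.0 to 137 CPM in control libraries, lymphocyte markers (5 of 12) at 13.6 to 70.5 and 17.8 to 73.8 CPM, and neutrophil markers (6 of 10, with Ly6g, Ltf and Ngp at 3 reads or fewer) at 1.57 to 210 and 4.34 to 69.2 CPM. Their part in the lower Sall1, Mef2a, Mef2c and Bhlhe41 and in the higher Spi1 was not tested.

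**Figure D5:**
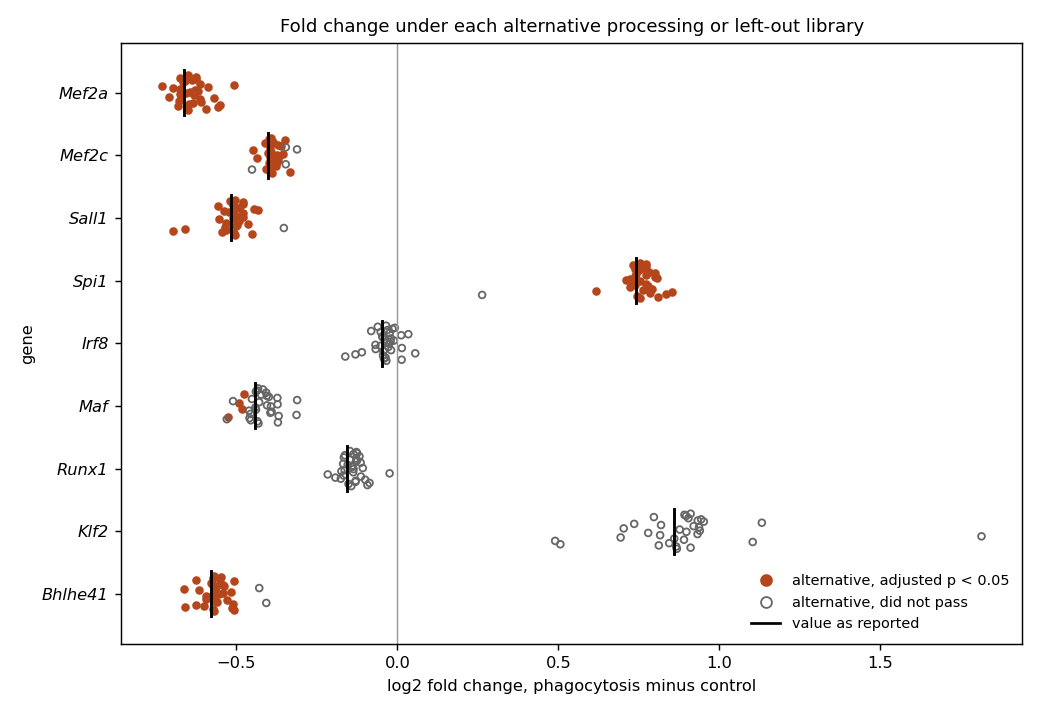
Log2 fold change of each gene, phagocytosis minus control (x axis), under each alternative processing and with each library left out (points, filled where the adjusted p was under 0.05), with the reported value as a vertical line. Mef2a stays filled throughout, from -0.73 to -0.51, and the open point of Spi1 at 0.26 is the fit to counts rebuilt from TPM and effective lengths.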

How the data were processed

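The deposited files give, per the file headers, a length, an effective length, an estimated (expected) count of reads and a TPM value for each of 116945 transcripts and each library. The headers are those of the quantifier salmon; version, index and read filtering are not given in the sources at hand. The authors' expected counts are not normalised, and their TPM take effective length and library size into account. Of the transcripts, 116023 matched the GENCODE mouse annotation (vM21, GRCm38) and 922, with 0.274 to 0.379% of a library's reads, did not and were not used. Summing over the transcripts of a gene and rounding gave whole counts. Genes were tested with edgeR 4.0.16 in R 4.3.3 (quasi-likelihood F test, robust, TMM normalisation, low-count filter by group, minimum count 10), with 8 group means over all 24 libraries and no covariate. P-values are two-sided, with Benjamini-Hochberg adjustment over 9803 genes in each of 16 comparisons and a threshold of 0.05. The biological coefficient of variation was 0.285. Log2 fold changes hold edgeR's default prior count, and SE were worked back from the F statistic and the fold without that prior count.

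Alternatives were other size factors, no filter, DESeq2 1.42.0, counts rebuilt from the authors' TPM and effective lengths, a replicate block, subsets of libraries, each library left out and, chosen after seeing the data, protein-coding transcripts alone. The titles' replicate numbers were not taken as pairs, because the labels do not tie a number to an animal or batch. Deviations over all genes had a median correlation of 0.01 between same-numbered libraries. Pairs of members were tested with 100000 permutations within groups. The fits were tested on simulated data.

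The members and lists were chosen with earlier results of these data known; 1 gene of the marker and homeostatic lists is not reported here. The genes named are the 9 members, up to 4 genes per related list with the smallest adjusted p in the state comparison, the 4 such homeostatic genes, and the 3 most alike genes per called member; C1qc stands under that last rule. Reads amplified without molecular identifiers are not independent molecules, so the depth, 421107 to 1013797 reads per library, limits precision further for low genes such as Klf2.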

Additional observations from a re-analysis of the deposited data

Results flagged for a closer look

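Of 36 sets of 4 libraries examined (9 genes in 4 phagocytosis groups), 2 had a library far from the others, and chance alone sets apart about 1 set in 20. In female NL4-/- phagocytosis libraries the lowest Sall1 value, 211 CPM in library 1, stood apart from the other 3, at 273 to 275 CPM. In male WT phagocytosis libraries the highest Klf2 value, 20.6 CPM in library 4, stood apart from the other 3, at 1.49 to 3.38 CPM. That library also held the highest Sall1 value of its state, 350 CPM.

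Klf2 had opposite genotype effects in the controls of the sexes. The log2 fold change, NL4-/- minus WT, was 1.34 in male controls (2.43 and 7.19 CPM in NL4-/-, 2.13 and 1.51 CPM in WT) and -1.82 in female controls (0 and 4.09 CPM in NL4-/-, 9.29 and 8.59 CPM in WT). Each side rests on 2 libraries per genotype and at most 9.29 CPM, and the difference between the sexes was not tested.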

How the results depend on the processing

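The state comparison was recomputed under 34 alternatives. Over all 16 comparisons and their alternatives, 545 of 555 counts of called members stayed within 1.5 times. Most comparisons called 0 members, and a count of 0 that stayed 0 is among the 545. This share therefore says little about the comparisons in which members were called. Mef2a was called in all 34, with log2 fold changes between -0.73 and -0.51, and no called member changed sign in any. In the comparison of states, 5 members were called, against 3 with counts rebuilt from TPM and effective lengths (Mef2a, Sall1 and Bhlhe41), 3 without the 3 controls over 20% satellite reads (Mef2a, Sall1 and Spi1) and 3 to 6 with 1 library left out, the 3 being without male WT control 2. In female WT mice 1 member, Spi1, was called, against 0 with rebuilt counts and 0 to 1 with 1 library left out. In female NL4-/- mice, where 0 members were called, 1 was called with phagocytosis libraries 1 and 2 alone (Spi1) and 1 with DESeq2 (Mef2a), and the genotype comparison of female phagocytosis libraries gave 1 (Spi1, lower in NL4-/-) with libraries 3 and 4 alone. The cause of these changes was not tested. Without the 3 satellite-rich controls the log2 fold changes of Bhlhe41 and Mef2c were -0.41 (adjusted p = 0.238) and -0.35 (adjusted p = 0.154). Over all genes the state comparison called 1332 (824 higher, 508 lower). It called 1772 with phagocytosis libraries 1 and 2 alone, but 782 with libraries 3 and 4 alone. Without the 3 satellite-rich controls 410 were called, and with 1 library left out 781 to 1508 (781 without female WT control 2). With library totals in place of TMM 1329 were called (981 higher, 348 lower). Irf8 changed sign in 5 alternatives and was called in none. Of the 14 called genes named from the related and homeostatic lists, Irf7 and Id2 were called in every alternative. The call was lost in 19 of the 34 for Ets2, 8 for Klf6, 6 for Sall3, 5 for Lyl1, 3 for Smad3 and 2 for Klf3. It was lost in 1 each for Klf12, Cebpb, Tgfbr1, Lair1, Rnase4 and Crybb1. Called related factors that are not named were not followed through the alternatives.

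Over all genes, same-numbered libraries had a median correlation of deviations of 0.01, and 6 of 24 libraries correlated best with their own number. Single genes can differ from this, and Sall1 was lower in phagocytosis libraries numbered 1 and 2 in each group. Whether the numbers mark a batch was not tested. With the number as a replicate block 5 members were called in the state comparison and 1, Sall1, in male NL4-/- mice, against 0 without it, and 1646 genes in all. Fits on the libraries of the compared groups alone are the same as the reported fit for comparisons that use all 8 groups. Klf2 was not tested in 2 of the alternatives because too few reads remained under the filter. Klf2 was measured least closely, with 0 to 16 reads a library and 1.49 to 20.6 CPM within 1 group; its estimate of 0.86 on the log2 scale had an SE of 0.60.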
